A study of Mus musculus with 29 samples.

Results

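The mitochondrial ribosomal protein genes are the nuclear genes, named Mrpl or Mrps in the mouse, whose products build the ribosome inside mitochondria. They were chosen by symbol alone (Mrpl or Mrps, a number and at most 1 letter) among genes with a total count of at least 100 over the 29 libraries of the series. The choice took 78 of the 49997 genes in the count table, and all 78 also passed the filter on low counts that left 21768 genes for testing. By their known place in the ribosome, 51 belong to the large subunit, 26 to the small subunit and 1 to neither. Mrps36 is the exception, since its product is known as a component of the 2-oxoglutarate dehydrogenase complex. Proteins with a bacterial counterpart made up 45 of the 78 and proteins found only in mitochondrial ribosomes 31, with Mrps36 and 1 large-subunit gene unclassed.

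Mitochondria carry their own small genome, and the proteins it encodes, all of them subunits of the respiratory chain and ATP synthase, are made by a ribosome that differs from the cytosolic one. The ribosomal RNAs of this ribosome come from mitochondrial DNA, while every protein of it is encoded in the nucleus, made in the cytosol and imported. An oocyte accumulates a very large number of mitochondria as it grows, and mRNA stored during growth has to serve meiotic maturation and the early embryo, because transcription stops in the fully grown oocyte. During maturation many stored mRNAs are deadenylated and degraded, and others gain poly(A) tail and are translated.

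The series compared female germ cells that carry, by their labels, a conditional knockout (CKO, Dhx36fl/fl; Zp3-Cre) with Dhx36fl/fl controls (WT), so both genotypes have the floxed allele. Dhx36 encodes an RNA helicase that unwinds G-quadruplexes, 4-stranded structures of G-rich nucleic acid, and Zp3-Cre acts in oocytes from the start of their growth, not in the somatic cells of the ovary. CKO and WT cells were taken as growing oocytes at 2 weeks of age (GO 2W, 3 CKO and 3 WT libraries), fully grown oocytes at 3 weeks (FGO 3W, 2 and 2) and at 4 weeks (FGO 4W, 3 and 3), metaphase II oocytes at 3 weeks (MII 3W, 4 and 3) and zygotes at 3 weeks (zygote 3W, 3 and 3). Each library came from a tube of 10 cells by Smart-seq2, which captures RNA by its poly(A) tail. No label says that the tubes of a group came from separate females, so the p-values below measure the spread between tubes. The genotype of the zygotes' father is not stated in the labels.

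Library totals ran from 17697507 to 49104313 counts, with 14691 to 19890 genes at 10 counts or more. Symbols of ribosomal RNA took 21.9% of the counts of CKO MII 3W replicate 3 and 27.3% of CKO zygote 3W replicate 1, against 1.61% to 8.43% in the other libraries. Summed over 10 oocyte markers, levels were 6071 to 31220 CPM (counts scaled to library size), while 12 granulosa and cumulus markers summed to 38.48 to 141.8 CPM, 8 blood and stroma markers to 21.13 to 160.4 CPM and 6 sperm and testis markers to 2.022 to 11.42 CPM. Blood and stroma markers summed to 35.94 to 81.02 CPM in CKO MII oocytes and 139.7 to 160.4 CPM in WT MII oocytes, and granulosa and cumulus markers to 84.21 to 141.8 CPM in CKO and 128.3 to 138.7 CPM in WT MII oocytes. In zygotes the oocyte markers summed to 6071 to 12280 CPM in CKO and 11780 to 12560 CPM in WT, and the part of any of these differences in the results below was not tested. Whole-gene levels of Dhx36 were 66.59 to 94.18 CPM in CKO and 63.98 to 77.19 CPM in WT at GO 2W, 29.45 to 36.81 CPM in CKO and 19.85 to 30.35 CPM in WT at FGO 3W, and 82.93 to 86.76 CPM in CKO and 64.94 to 73.91 CPM in WT at FGO 4W. They were 338.3 to 3226 CPM in CKO and 397.3 to 429.0 CPM in WT at MII 3W, and 303.7 to 758.4 CPM in CKO and 255.6 to 466.1 CPM in WT zygotes. The CKO mean was not below the WT mean at any stage, and the labels do not say which exons are deleted, so these counts cannot check the genotype.

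Levels below are CPM after TMM scaling (edgeR's correction for library composition), changes are log2 ratios with their standard error (SE), and a gene is called when its adjusted p from edgeR's quasi-likelihood test over 21768 genes is under 0.05. These CPM are relative levels after scaling and not plain shares of the counts, and the table holds neither spike-in nor mitochondrially encoded genes. Fewer transcripts per cell and a shorter poly(A) tail on the same transcripts cannot be told apart in these data. Total counts of a member over the 29 libraries ran from 1556 (Mrpl19) to 158427 (Mrps22), and 3 members had a count of 0 in some library, 5 values in all.

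The 78 genes together were at a higher level in prophase oocytes than at metaphase II or in zygotes, on every scale. Their summed level in growing oocytes was 4288 ± 54.0 CPM in CKO and 4801 ± 182 CPM in WT (SD, n = 3 each). It was 4302 ± 61.5 CPM in CKO and 5159 ± 467 CPM in WT at FGO 3W (n = 2 each), and 5120 ± 160 CPM in CKO and 5556 ± 305 CPM in WT at FGO 4W (n = 3 each). Every CKO library lay below every WT library at GO 2W (4244 to 4348 against 4592 to 4930 CPM) and FGO 3W (4259 to 4346 against 4829 to 5489 CPM), while at FGO 4W the ranges met (4936 to 5224 against 5207 to 5774 CPM). That separation depends on the TMM scaling. As a plain percentage of the counts the sum was 0.5307% to 0.5408% in CKO and 0.5093% to 0.5459% in WT at GO 2W, and 0.5528% to 0.5665% in CKO and 0.5481% to 0.5666% in WT at FGO 3W, ranges that overlap. At FGO 4W it was higher in every CKO library (0.6193% to 0.6436%) than in any WT library (0.586% to 0.612%). Oocyte markers, summed in TMM-scaled CPM, were lower in every CKO library than in any WT library at these 3 stages: 23350 to 24070 in CKO against 26130 to 31220 in WT at GO 2W, 17920 to 18990 in CKO against 22610 to 25200 in WT at FGO 3W, and 12520 to 17380 in CKO against 22570 to 25460 in WT at FGO 4W. Granulosa and cumulus markers were higher in CKO at the same stages, with 66.22 to 94.15 CPM in CKO against 39.15 to 58.77 in WT, 89.39 to 92.84 in CKO against 47.32 to 54.67 in WT, and 52.9 to 74.47 in CKO against 38.48 to 47.52 in WT. The part of either in the sums and calls of these stages was not tested.

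At metaphase II the sum was 2144 ± 108 CPM in CKO (n = 4) and 2010 ± 56.2 CPM in WT (n = 3), and in zygotes 2417 ± 56.6 CPM in CKO and 2468 ± 189 CPM in WT (n = 3 each). On this scale the CKO and WT ranges overlapped at both stages, by 1 CPM at metaphase II (2071 to 2301 in CKO, 1962 to 2072 in WT). As a percentage of the counts they did not: the sum was 0.1555% to 0.1875% in CKO and 0.1401% to 0.1457% in WT at metaphase II, and 0.1879% to 0.2162% in CKO and 0.219% to 0.2451% in WT in zygotes. The median member was at 50.7 CPM in WT FGO 3W oocytes, 9.90 CPM in WT MII oocytes and 19.9 CPM in WT zygotes, so the typical gene changed much more across maturation than the sum did. The 5 most abundant members made up 35.22% of the sum in CKO MII oocytes and 38.92% in WT MII oocytes, against 22.32% in CKO and 23.22% in WT FGO 3W oocytes.

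**Figure D1:**
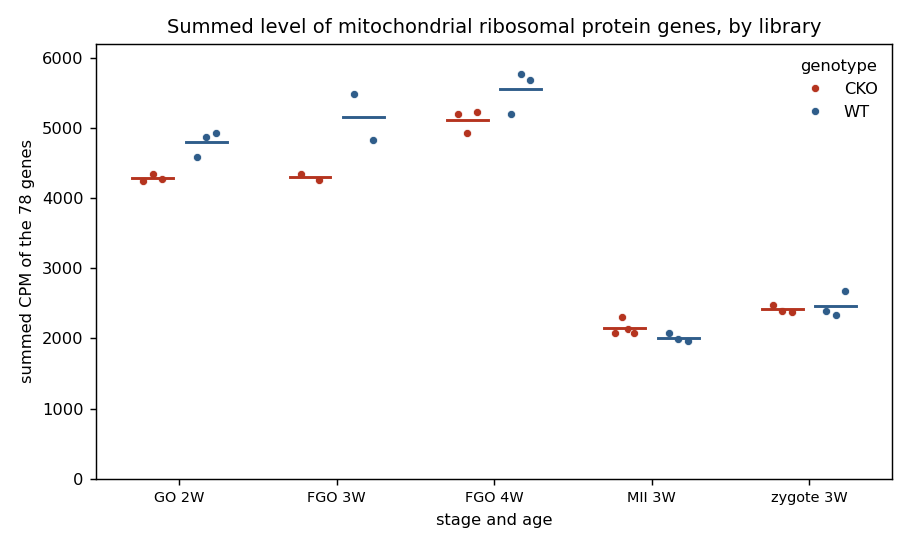
Summed TMM-scaled CPM of the 78 mitochondrial ribosomal protein genes in each library (points) with the group mean (bar), CKO left of WT at each of the 5 stages. Prophase groups have means between 4288 and 5556 CPM, and the MII and zygote groups between 2010 and 2468 CPM.

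Members differ widely in abundance. Per transcript length, averaged over the 5 WT stage means, the most abundant were Mrpl32 at 160.7 FPKM, Mrps22 at 153.4 FPKM, Mrps36 at 130.5 FPKM and Mrpl9 at 105.7 FPKM. The product of Mrpl32 is cut by a mitochondrial protease before it joins the ribosome, a step known to gate ribosome assembly, and Mrps22 is a small-subunit protein found only in mitochondria. At the low end were Mrpl43 at 1.81 FPKM, Mrps10 at 1.09 FPKM, Mrps34 at 0.580 FPKM and Mrpl19 at 0.3001 FPKM. Exons of Mrpl43, Mrps34 and Mrpl19 lie over exons of neighbouring genes on 33.4% (Twnk), 63.4% (Mapk8ip3) and 36.0% (Gcfc2) of their length, and the strand setting of the counting is not given, so reads of these pairs cannot be separated.

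The rank order of the members by CPM was not the same at all stages. Mrps25 in WT and Mrps22 in CKO led growing oocytes, and Mrps22 led fully grown oocytes of both genotypes at both ages. At metaphase II the leader was Mrpl18, whose bacterial counterpart binds 5S ribosomal RNA, with 12.2% of the summed level in CKO and 9.04% in WT. Mrpl9 led CKO zygotes with 9.5% of the sum and Mrpl18 led WT zygotes with 6.64%.

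Within WT, no member was called across the ages of the prophase oocytes. None was called between WT FGO 3W and WT GO 2W oocytes, where 0.698% of all genes were called higher and 0.345% lower, and 5 members had an unadjusted p under 0.05. None was called between WT FGO 4W and WT FGO 3W oocytes either, although 59 of 78 members had a change above 0, with a median of 0.09 against 0.00 over all genes (0.294% of all genes higher, 0.285% lower, 3 members with an unadjusted p under 0.05). DESeq2 and limma on FPKM also called 0 members in both comparisons. The CKO oocytes likewise had 0 calls by edgeR at FGO 3W against GO 2W (2.2% of all genes higher and 2.2% lower, 7 members with an unadjusted p under 0.05).

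Most members were called across maturation. In WT, 63 of the 78 members were lower in MII 3W than in FGO 3W oocytes and 4 were higher, with a median change of -2.34 against -0.28 over all genes, of which 28.5% were lower and 19.8% higher. Blood and stroma markers summed to 139.7 to 160.4 CPM in WT MII oocytes and 40.61 to 47.77 CPM in WT FGO 3W oocytes, and granulosa and cumulus markers to 128.3 to 138.7 CPM in WT MII and 47.32 to 54.67 CPM in WT FGO 3W oocytes. Their part in the change was not tested. Mrpl33, a small large-subunit protein with a bacterial counterpart, had 0.0758, 0.221 and 0.0762 CPM in WT MII oocytes, against 31.9 and 32.6 CPM in WT FGO 3W oocytes. Mrps11, a protein of the small subunit's platform, had 0.303, 0 and 0.152 CPM at MII, against 23.2 and 25.8 CPM in the fully grown oocytes. No MII library came near the fully grown oocytes in either gene, and the MII values stand for very few reads. The changes were -8.02 (SE 0.500, edgeR adjusted p 2.11e-13) for Mrpl33 and -7.24 (SE 0.421, 5.49e-14) for Mrps11.

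Mrpl46, whose product sits on the large subunit's surface and is specific to mitochondria, fell by 7.26 on the log2 scale. Mrpl12, the flexible stalk protein that recruits translation factors, fell by 7.01. In total 32 members fell by more than 8-fold in WT. Mrpl46 and Mrps11 are neighbours on chromosome 7 in opposite orientation and overlap over 12.2% and 8.0% of their exons. The strand setting of the counting is not given, so how reads of the overlap were counted is not known.

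The 4 members that went the other way in WT were Mrpl3, Mrpl44, Mrpl10 and Mrps14. Mrpl3 (chromosome 9, 105053239 to 105079888, GRCm38), a core protein near the site of peptide bond formation, had 169.4, 162.2 and 154.8 CPM in WT MII oocytes, against 49.9 and 46.7 CPM in WT FGO 3W oocytes. The groups were far apart and the change was 1.75 (SE 0.235, edgeR adjusted p 4.12e-07). Mrpl44, which has the fold of an RNA-cutting enzyme of the RNase III family, had 85.1, 82.6 and 90.0 CPM at MII, against 37.1 and 38.1 CPM before (1.19, SE 0.191, 6.55e-06). Mrpl10, the base of the stalk that holds Mrpl12, changed by 1.01 (SE 0.175, 1.94e-05) and Mrps14, a protein of the small subunit's head, by 0.63 (SE 0.168, 0.00276). On log2(FPKM + 1) in limma the calls of Mrpl10 (0.41, adjusted p 0.0626) and Mrps14 (0.03, 0.916) ended, and that of Mrps14 also ended without WT FGO 3W replicate 2 (0.47, 0.0921).

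The first step of embryonic life reversed part of the fall in level. In WT zygotes 47 members were higher and 8 lower than in WT MII oocytes, with a median of 0.93 against 0.11 over all genes (19.3% of all genes higher, 14.7% lower). Mrpl33 had 4.28, 5.29 and 6.54 CPM in WT zygotes, a change of 5.43 from its MII values given above (SE 0.482, edgeR adjusted p 7.67e-10). Mrpl46 was higher by 4.75, Mrps11 by 4.63 and Mrpl12 by 4.03. All 4 stayed far below their level in fully grown oocytes. The lower members were led by Mrpl49 (-2.62), Mrps36 (-1.35), Mrpl22 (-1.30) and Mrpl3 (-1.21), of which Mrpl22 lines the tunnel through which new peptides leave and Mrpl49 is specific to mitochondria. Capture was by poly(A) tail, so new transcripts and lengthened tails cannot be told apart here.

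A cytoplasmic polyadenylation element is a U-rich motif near the end of an mRNA at which maturing oocytes lengthen the tail. The letters TTTTAT or TTTTAAT (sense strand, in the last 100 bases of 1 GENCODE vM21 transcript per gene) occurred in 12 of 78 members (15.4%) and in 18.3% of 14753 tested genes. They occurred in 2 of the 4 members higher in WT MII oocytes, in 6 of the 63 lower (9.5%) and in 4 of the 11 not called (36.4%). Over all tested genes the shares were 30.1% of those higher, 10.3% of those lower and 17.1% of those not called. The members' transcripts are short, with a median of 1302 bases and a 3′ UTR of 327 bases, against 2903 and 928 bases over all tested genes. For the 2 higher members with a match, 30 bases around it are shown, starting 2 bases before the motif, which is in capitals, as DNA letters. The motif starts 85 bases before the transcript end in Mrpl44 and 92 in Mrps14, so the stretches stop short of the end.
Mrpl44: taTTTTATtccctccagctttgaagtgtag
Mrps14: gtTTTTATgttctatgcatctacttttcct

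The main comparison asked how the Dhx36 CKO changed mRNA at each stage. For the mitochondrial ribosomal protein genes the answer differed from gene to gene: 64 of 78 were called at 1 stage or more, 26 of them only higher in CKO, 28 only lower and 10 higher at some stages and lower at others. These are 82.1%, 33.3%, 35.9% and 12.8% of the members, beside 58.7%, 27.5%, 25.6% and 5.66% of all genes tested. At GO 2W, 4 members were higher and 6 lower in CKO (all genes 7.34% higher, 6.38% lower). At FGO 3W there were 4 higher and 11 lower (8.19% and 9.62%), and at FGO 4W 7 higher and 11 lower (11.8% and 14.8%). At MII 3W 29 were higher and 11 lower (18.2% and 14.7%), and in zygotes 15 higher and 28 lower (14.5% and 12.5%).

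As shares of the 78, these counts are 5.13% higher and 7.69% lower at GO 2W, 5.13% and 14.1% at FGO 3W, 8.97% and 14.1% at FGO 4W, 37.2% and 14.1% at MII 3W, and 19.2% and 35.9% in zygotes. The share higher at metaphase II and the share lower in zygotes were at least 2 times those of all genes. Lower calls at FGO 3W, lower calls at GO 2W and higher calls in zygotes were above the all-gene share by less, and the other shares were below it. The median member change was -0.13, -0.23 and -0.15 in the 3 prophase groups, 0.37 at metaphase II and -0.11 in zygotes, beside medians of -0.01, -0.05, 0.00, 0.13 and 0.08 over all genes. On the log2(FPKM + 1) scale in limma the prophase medians were slightly above 0 instead (0.02, 0.03 and 0.03 over 77 members, beside 0.07, 0.09 and 0.09 over all genes), with 9 higher and 3 lower at GO 2W, 8 and 2 at FGO 3W and 17 and 10 at FGO 4W, so the sign of the prophase medians depends on the scaling. Of all 15242 genes in that fit, 2640 were higher and 1152 lower at GO 2W. At FGO 3W the all-gene counts were 3207 and 1457, and at FGO 4W 3560 and 2452. Metaphase II (33 higher, 8 lower, median 0.32) and zygotes (12 higher, 32 lower, median -0.19) kept their direction there. Over all genes in that fit, 3637 were higher and 2018 lower at metaphase II, and 2035 and 3431 in zygotes.

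Called at no stage were 14 members: Mrpl1, Mrpl4, Mrpl19, Mrpl21, Mrpl24, Mrpl41, Mrpl43, Mrpl44, Mrpl53, Mrps9, Mrps10, Mrps15, Mrps21 and Mrps35. Some of these, such as Mrpl44, had ample counts, and others, such as Mrpl19, were among the lowest of the set.

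**Figure D2:**
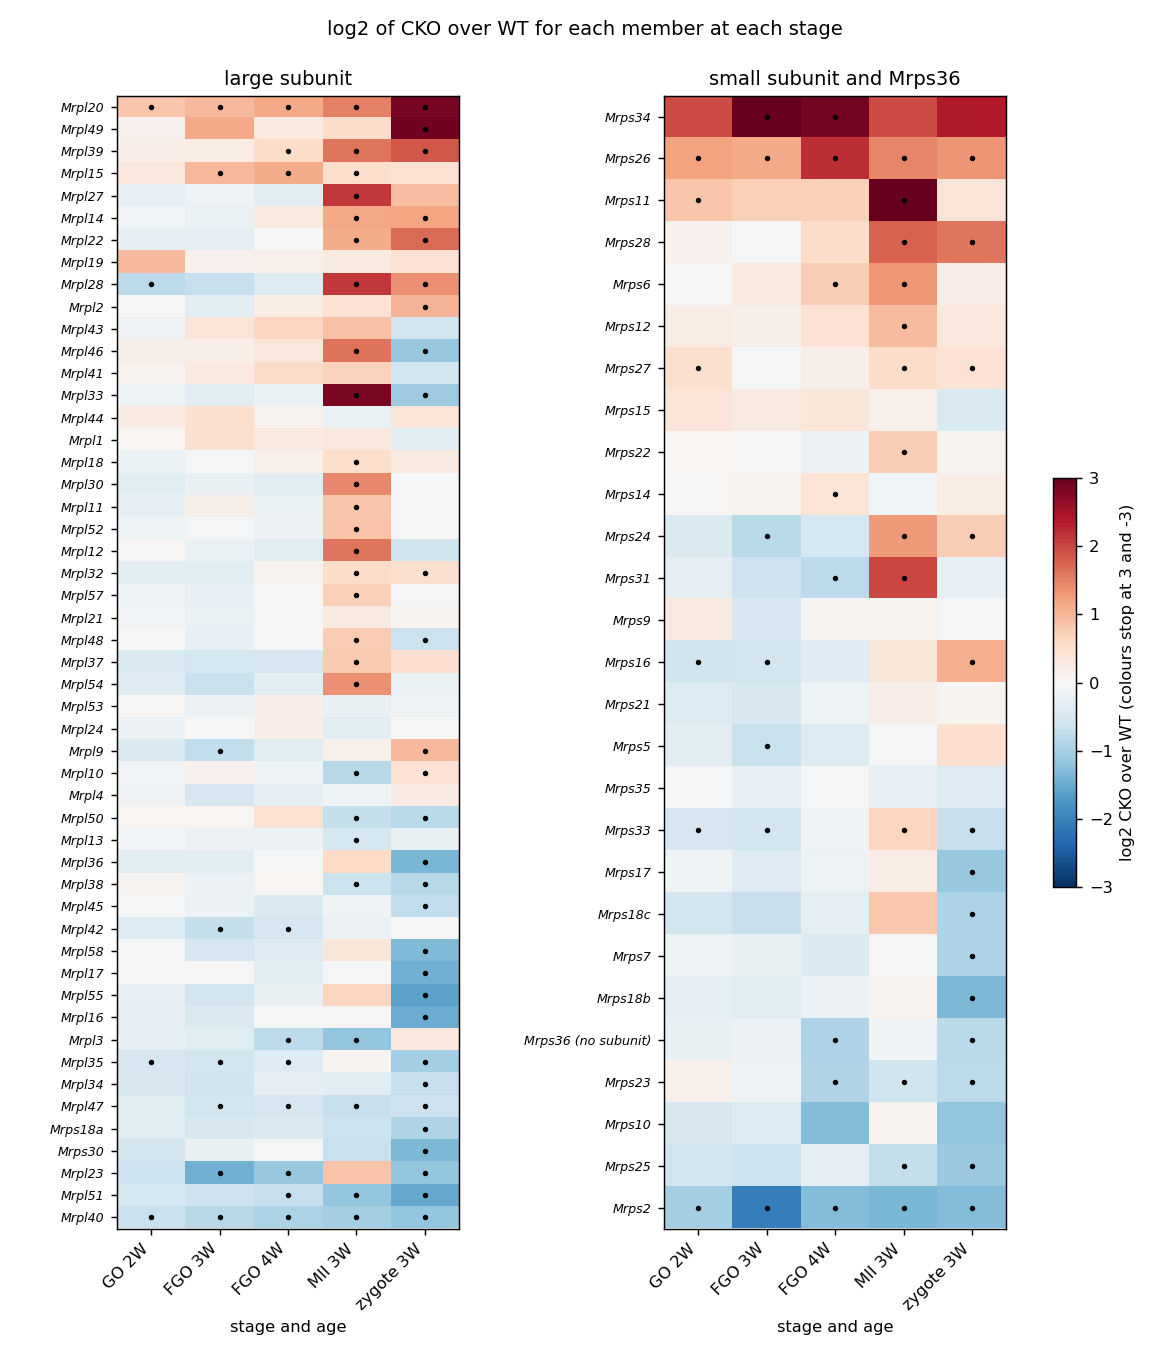
Log2 change of CKO over WT for each of the 78 genes (rows, by subunit) at the 5 stages (columns), with a dot where the gene was called by edgeR. Most prophase cells carry no dot, 40 of 78 carry one at MII 3W and 43 at zygote 3W, with higher calls prevailing at the first and lower calls at the second.

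A call in the same direction at every stage was rare. Mrps26 and Mrpl20 were higher in CKO at all 5 stages (2.56% of members, against 1.71% of all genes), and Mrps2 and Mrpl40 were lower at all 5 (2.56% against 1.2%). Mrps26 (chromosome 2, 130563742 to 130568695) encodes a small-subunit protein specific to mitochondria. It had 43.3, 34.0 and 35.7 CPM in CKO growing oocytes, against 14.5, 18.03 and 16.7 CPM in WT, and 60.6, 57.2 and 57.6 CPM in CKO FGO 4W oocytes, against 15.1, 9.80 and 13.1 CPM in WT. The lowest CKO library was above the highest WT library at each of the 5 stages. Its changes were 1.20 at GO 2W, 1.15 at FGO 3W, 2.21 at FGO 4W (SE 0.206, edgeR adjusted p 1.28e-08), 1.47 at MII 3W and 1.32 in zygotes. The FGO 3W call ended without WT replicate 1 (1.02, adjusted p 0.0505).

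Mrpl20 (chromosome 4, 155802878 to 155809975) encodes a large-subunit protein whose bacterial counterpart is needed early in assembly. In CKO zygotes it had 10.45, 23.7 and 10.4 CPM, against 1.79, 1.58 and 2.83 CPM in WT zygotes. The groups were well apart there (2.85, SE 0.315, edgeR adjusted p 1.73e-07), and its changes at the other stages were 0.84, 0.98, 1.14 and 1.52 from GO 2W to MII 3W. The calls at GO 2W (0.0477) and FGO 3W (0.0492) were marginal and ended whenever any 1 library of those stages was left out, with adjusted p from 0.0806 to 0.148 and from 0.0838 to 0.308.

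Mrps2 (chromosome 2, 28468066 to 28471178) encodes a protein at the junction of the small subunit's head and body. It had 14.7 and 14.5 CPM in CKO FGO 3W oocytes, against 66.9 and 55.0 CPM in WT, a change of -2.06 (SE 0.222, edgeR adjusted p 4.12e-07). In MII oocytes it had 25.4, 23.9, 19.0 and 22.1 CPM in CKO, against 58.6, 59.6 and 57.1 CPM in WT. CKO and WT libraries never overlapped, and the changes at GO 2W, FGO 4W, MII 3W and zygote were -1.02, -1.30, -1.37 and -1.31.

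Mrpl40 (chromosome 16, 18872018 to 18876862) encodes a large-subunit protein specific to mitochondria, and its human counterpart lies in the region deleted in DiGeorge syndrome. It had 20.9, 24.9, 16.6 and 19.5 CPM in CKO MII oocytes, against 45.4, 41.1 and 38.7 CPM in WT, and 55.0, 20.9 and 31.7 CPM in CKO zygotes, against 78.3, 81.4 and 82.2 CPM in WT. All CKO values were below all WT values at every stage. The changes were -0.66, -0.84, -0.94, -1.03 and -1.17 from growing oocytes to zygotes. Its call at GO 2W (edgeR adjusted p 0.0408) ended without any WT replicate or CKO replicate 1 or 3, with adjusted p up to 0.176. The FGO 3W call (0.0267) ended without any 1 library of that stage, with adjusted p up to 0.189. Both calls also ended in limma on log2(FPKM + 1), with adjusted p of 0.0586 and 0.0662.

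**Figure D3:**
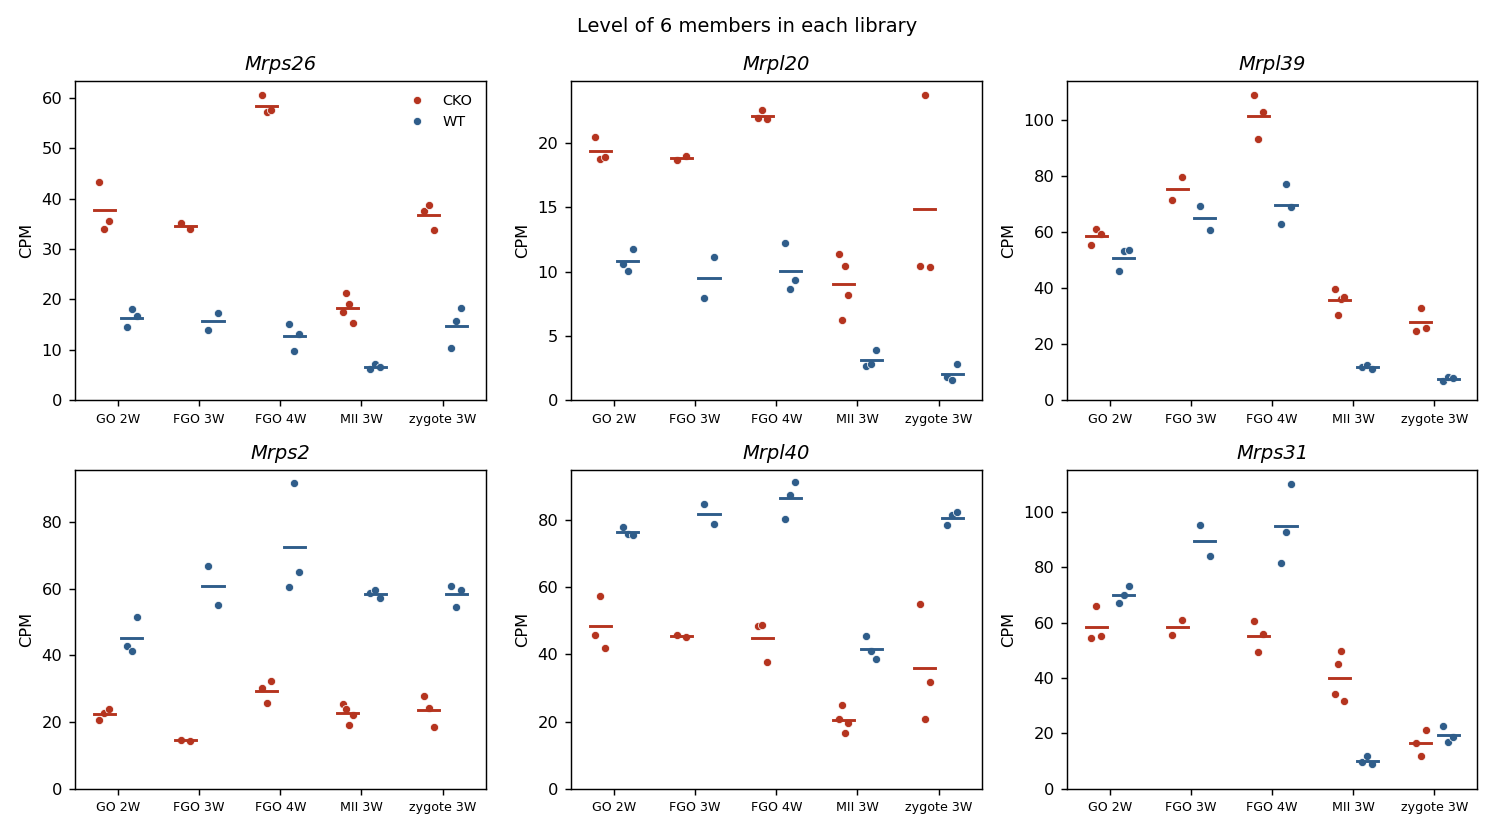
CPM of Mrps26, Mrpl20, Mrpl39, Mrps2, Mrpl40 and Mrps31 in each library (points) with group means (bars), CKO left of WT at each stage. Mrps26 and Mrpl20 lie higher and Mrps2 and Mrpl40 lower in CKO at all 5 stages, while Mrps31 is lower in CKO at FGO 4W and higher at MII 3W.

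These 4 genes were called at the earliest stage sampled, growing oocytes, and promoters of 3 of them are shown. The part of transcription in these calls was not tested. The window of Mrpl20, not shown, held no match to the ETS, NRF1, YY1 or SP motifs. The windows run from 250 bases before to 50 bases after the RefSeq start (GRCm38.p6), with motif matches in capitals. Mrps26, at chr2:130563507-130563806 on the + strand, held 1 ETS match and 2 overlapping NRF1 matches. Mrps2, at chr2:28467816-28468115 on the + strand, held none of the motifs, and Mrpl40, at chr16:18876588-18876887 on the - strand, held 2 SP matches.
Mrps26: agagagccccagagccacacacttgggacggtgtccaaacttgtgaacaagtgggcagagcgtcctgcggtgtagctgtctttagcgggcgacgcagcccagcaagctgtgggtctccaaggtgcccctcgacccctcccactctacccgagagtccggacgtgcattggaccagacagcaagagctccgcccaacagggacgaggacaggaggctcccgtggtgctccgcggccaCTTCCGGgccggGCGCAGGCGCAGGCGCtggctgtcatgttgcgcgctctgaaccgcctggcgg
Mrps2: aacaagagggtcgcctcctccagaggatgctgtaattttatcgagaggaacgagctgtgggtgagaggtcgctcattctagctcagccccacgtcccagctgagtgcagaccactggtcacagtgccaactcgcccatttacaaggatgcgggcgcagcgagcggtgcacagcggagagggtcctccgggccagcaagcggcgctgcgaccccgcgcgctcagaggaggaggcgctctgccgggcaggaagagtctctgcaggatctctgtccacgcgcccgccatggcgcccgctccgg
Mrpl40: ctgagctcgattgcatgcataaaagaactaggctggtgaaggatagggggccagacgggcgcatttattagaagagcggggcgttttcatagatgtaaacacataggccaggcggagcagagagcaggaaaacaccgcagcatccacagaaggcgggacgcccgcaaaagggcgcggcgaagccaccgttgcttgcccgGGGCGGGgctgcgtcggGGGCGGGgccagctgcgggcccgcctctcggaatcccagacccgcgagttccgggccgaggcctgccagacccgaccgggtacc

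Promoters of the set share motifs of factors known to drive nuclear genes of mitochondria. The letters searched, on both strands, were CCGGAAG (ETS, the family of GABPA), the NRF1 motif by its consensus, AAGATGGC (YY1) and GGGCGGG (SP). RefSeq windows were at hand for 69 members and the other 9 were not used. ETS letters were in 36.2% of the 69, against 13.9% of 15250 tested genes and 9.1% of all 27025 promoters. NRF1 letters were in 18.8%, against 7.8% and 4.8%, and YY1 letters in 17.4%, against 3.8% and 2.9%. At least 1 of these 3 motifs occurred in 60.9% of the members, against 22.9% and 15.2%, while SP letters were about as common in members as elsewhere among tested genes (42.0%, against 37.0% and 25.8%). These shares describe letters in a window and say nothing of binding.

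Other members were called in the same direction at 3 stages or more. With the genes called at every stage included, 5 members were higher at 3 stages or more (6.41%, against 6.9% of all genes). Lower at 3 stages or more were 8 (10.3%, against 7.4% of all genes). Mrpl15, Mrpl39 and Mrps27 were each higher in CKO at 3 stages. Mrpl15, a core protein of the large subunit, had 54.2 and 52.2 CPM in CKO FGO 3W oocytes, against 26.6 and 26.9 CPM in WT (0.99, SE 0.208, edgeR adjusted p 0.00127). It was also higher at FGO 4W (1.11) and MII 3W (0.52), where the call ended with no filter on low counts (adjusted p 0.117) and with the stage fitted alone (0.104). Mrps27, an RNA-binding small-subunit protein with pentatricopeptide repeats, was higher at GO 2W (0.49), MII 3W (0.56) and zygote (0.44). Its GO 2W call ended without WT replicate 1 or 2 or CKO replicate 1 or 3 (adjusted p 0.113 to 0.166), and its zygote call ended without any WT replicate or CKO replicate 2 or 3 (0.0853 to 0.27).

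Lower in CKO at 3 or 4 stages were Mrpl23, Mrpl35, Mrpl47, Mrpl51, Mrps23 and Mrps33. Mrpl35 and Mrpl47 were lower at 4 stages each. Mrpl35, a small large-subunit protein with a bacterial counterpart, was lower by modest amounts in prophase (-0.49, -0.55 and -0.39) and clearly in zygotes, with 26.4, 33.2 and 34.0 CPM in CKO, against 59.7, 58.1 and 72.6 CPM in WT (-1.02, SE 0.141, edgeR adjusted p 4.12e-06). Mrpl47, which lies beside the exit of the peptide tunnel, was lower at FGO 3W (-0.55), FGO 4W (-0.50), MII 3W (-0.69, SE 0.145, 0.000516) and zygote (-0.63). Mrpl23, a tunnel-exit protein too, was lower at FGO 3W (-1.44), FGO 4W (-1.13) and zygote (-1.17), and Mrpl51 at FGO 4W (-0.69), MII 3W (-1.16) and zygote (-1.54). Mrps23 was lower at FGO 4W (-0.90), MII 3W (-0.61) and zygote (-0.79), and Mrps33 at GO 2W (-0.49), FGO 3W (-0.59) and zygote (-0.69) but higher at MII 3W (0.66). Apart from Mrps23 at FGO 4W, each prophase call of these 6 genes ended without at least 1 library of its stage, with adjusted p from 0.0512 to 0.545. The MII 3W call of Mrps23 ended without WT replicate 1 (-0.46, 0.0975), and the zygote call of Mrpl23 without WT replicate 3 or CKO replicate 2 or 3 (0.0502 to 0.0943).

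In growing oocytes at 2 weeks the calls were few and small. Beyond the 4 genes called at every stage, Mrps11 (0.83) and Mrps27 (0.49) were higher and Mrpl28 (-0.77), Mrps16 (-0.60), Mrps33 (-0.49) and Mrpl35 (-0.49) lower. Mrps11 had 42.8, 41.1 and 43.7 CPM in CKO, against 22.5, 23.1 and 26.0 CPM in WT. These libraries did not overlap, yet the call (edgeR adjusted p 0.041) ended without any 1 library, with adjusted p from 0.0726 to 0.132. Of the 10 calls at GO 2W, only Mrps26 and Mrps2 held in every fit with 1 library left out, and Mrps16 ended only without CKO replicate 3 (-0.58, 0.056). Leaving out any 1 of the 6 libraries gave 1 to 2 higher and 1 to 4 lower, with 1 and 1 without CKO replicate 3.

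At FGO 3W, with 2 libraries per genotype, the calls were led by Mrps2 (-2.06), Mrpl15 (0.99) and Mrps26 (1.15). Mrps34 was called higher (3.06, SE 0.938, edgeR adjusted p 0.0226), with 6.52 and 4.14 CPM in CKO and 0.158 and 1.11 CPM in WT. That call ended without WT replicate 1 (2.29, 0.242) or either CKO replicate (0.0517 and 0.132). Its level is low and most of its exons lie over Mapk8ip3 and Nme3, so the gene that the reads came from cannot be told apart. Lower, besides genes named above, were Mrpl42 (-0.72), Mrpl9 (-0.73), Mrps24 (-0.81), Mrps5 (-0.67) and Mrps16 (-0.55). Mrpl9, one of the most abundant members, had 136.2 and 131.5 CPM in CKO, against 232.1 and 213.2 CPM in WT, and its call (0.021) ended without any 1 library (0.0576 to 0.163). Mrps2 and Mrpl15 held without each library in turn. Leaving out any 1 of the 4 libraries gave 1 to 3 higher and 1 to 5 lower, with 1 and 1 without WT replicate 1.

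At FGO 4W the genes higher in CKO were Mrps34 (2.86), Mrps26 (2.21), Mrpl20 (1.14), Mrpl15 (1.11), Mrps6 (0.73), Mrpl39 (0.55) and Mrps14 (0.42). Mrps31, a small-subunit protein specific to mitochondria, was lower, with 60.6, 49.6 and 55.8 CPM in CKO, against 81.7, 92.6 and 110.2 CPM in WT (-0.78, SE 0.197, edgeR adjusted p 0.00403). Mrpl3 had 32.3, 27.0 and 27.9 CPM in CKO, against 50.5, 49.5 and 50.4 CPM in WT (-0.79, SE 0.200, 0.00413). Neither gene's groups overlapped. Mrps36, the dehydrogenase component, was lower by -0.92 and Mrpl42 by -0.51. The lower count was 7 without CKO replicate 3, and Mrps6 was no longer called without CKO replicate 2 (0.66, adjusted p 0.0517).

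Among the prophase groups the genotype change was called different for 1 member. Mrps2 had a larger fall at FGO 3W than at GO 2W (difference -1.05, SE 0.278, edgeR adjusted p 0.0481; all genes 0.68% higher, 0.992% lower), and that call ended without any 1 of the libraries of either stage except WT GO 2W replicate 3. No member's change differed between FGO 4W and FGO 3W by edgeR (1.1% of all genes higher, 1.62% lower), where 6 members had an unadjusted p under 0.05 and DESeq2 called 1. Between the CKO groups themselves, FGO 4W oocytes had higher Mrps2 (1.01), Mrpl14 (0.84), Mrpl53 (0.82), Mrpl2 (0.76) and Mrps26 (0.76) than FGO 3W oocytes and lower Mrps23 (-0.91), 5 and 1 members against 2.77% and 4.11% of all genes.

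Metaphase II held the largest number of members higher in CKO. Mrpl39 (chromosome 16, 84717576 to 84735742), a large-subunit protein specific to mitochondria, had 39.8, 30.6, 36.3 and 36.8 CPM in CKO MII oocytes, against 11.8, 12.7 and 11.1 CPM in WT. Mrps31 (chromosome 8, 22411361 to 22429665) had 34.2, 45.1, 49.7 and 31.8 CPM in CKO, against 9.55, 11.8 and 8.88 CPM in WT. In both genes the lowest CKO oocytes had more than double the highest WT value. The changes were 1.59 (SE 0.148, edgeR adjusted p 4.78e-09) and 1.99 (SE 0.199, 1.46e-08).

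Mrps28, a small-subunit protein with a bacterial counterpart, had 19.2, 27.7, 33.7 and 16.9 CPM in CKO, against 5.84, 7.59 and 7.81 CPM in WT (1.78, SE 0.215, edgeR adjusted p 3.12e-07). Mrpl28, a large-subunit protein with a bacterial counterpart, had 10.54, 7.90, 14.8 and 10.2 CPM in CKO, against 2.54, 2.91 and 1.98 CPM in WT (2.13, SE 0.279, 1.13e-06). Again no CKO library reached down to WT. Mrpl30 was higher by 1.44 (SE 0.192, 1.45e-06), and Mrps11 by 3.78 (SE 0.403, 4.29e-08) on 2.45, 1.87, 2.65 and 1.96 CPM in CKO, against 0.303, 0 and 0.152 CPM in WT, a ratio that rests on very few WT reads.

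The remaining members higher at metaphase II spanned both subunits. They were Mrpl33 (2.82), Mrpl27 (2.13), Mrpl46 (1.64), Mrpl12 (1.6), Mrpl20 (1.52), Mrps26 (1.47), Mrpl54 (1.38), Mrps6 (1.30), Mrps24 (1.28), Mrpl14 (1.16), Mrpl22 (1.11) and Mrps12 (0.95). Smaller changes were those of Mrpl52 (0.84), Mrpl11 (0.83), Mrpl37 (0.78), Mrpl48 (0.77), Mrps22 (0.75), Mrpl57 (0.70), Mrps33 (0.66), Mrps27 (0.56), Mrpl32 (0.54), Mrpl15 (0.52) and Mrpl18 (0.52). Mrpl46 was the only one of the 29 whose CKO and WT ranges overlapped.

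Lower at metaphase II was a smaller set with some of the best expressed members. Mrpl3, which rose in WT maturation, had 80.9, 61.1, 48.6 and 94.2 CPM in CKO, against 169.4, 162.2 and 154.8 CPM in WT (-1.19, SE 0.183, edgeR adjusted p 1.2e-05). Mrpl10, the stalk base, had 81.1, 75.8, 63.4 and 86.5 CPM in CKO, against 138.5, 131.4 and 139.0 CPM in WT (-0.83, SE 0.141, 4.34e-05). Both were apart in every library, with the values of CKO MII oocytes for Mrpl10 close to those of CKO FGO 3W oocytes (75.8 and 70.8 CPM). Besides Mrps2, Mrpl40, Mrpl47, Mrpl51 and Mrps23, the others were Mrps25 (-0.72), Mrpl50 (-0.71), Mrpl38 (-0.64) and Mrpl13 (-0.53). Leaving out each library in turn gave 28 to 32 members higher and 9 to 12 lower, and 31 and 14 without the 2 libraries rich in ribosomal RNA symbols.

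The genotype change was greater at metaphase II than at FGO 3W for 23 members and smaller for 1, against 9.79% and 4.93% of all genes. Mrps31 had the smallest adjusted p (difference 2.62, SE 0.311, edgeR adjusted p 1.34e-06), being lower in the CKO fully grown oocytes (55.5 and 61.1 CPM, against 95.3 and 84.0 CPM in WT) and higher at metaphase II. Mrpl28 (2.82) likewise had a lower value in CKO at FGO 3W (49.95 and 48.5 CPM, against 82.3 and 76.4 CPM in WT) and a higher one at MII. Mrpl39 had a difference of 1.37 (SE 0.232, 0.000149), and Mrpl10 was the member with the opposite sign (-0.95, SE 0.234, 0.00654). The count of 24 was 15 without WT FGO 3W replicate 1 and 15 without CKO FGO 3W replicate 2.

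Within CKO oocytes the fall at maturation was also widespread. In CKO, 56 members were lower at MII 3W than at FGO 3W and 5 were higher, with a median of -1.69 against -0.24 over all genes (28.2% lower, 21.8% higher), and 21 fell by more than 8-fold, against 32 in WT. The higher members in CKO were Mrpl3 (0.92), Mrpl18 (0.69), Mrps2 (0.63), Mrpl44 (0.51) and Mrps14 (0.44). By point values 49 of the 63 members that fell in WT had a smaller change in CKO. Choosing members by their fall in WT favours such a count by itself, and the share over all genes was not computed. Over all 78 members the CKO-WT change at MII 3W minus that at FGO 3W was above 0 in 55 and below 0 in 23. Its median was 0.60, beside 0.14 over all genes. The test of that difference is the one that called 24 members, Mrpl10 with the opposite sign.

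**Figure D4:**
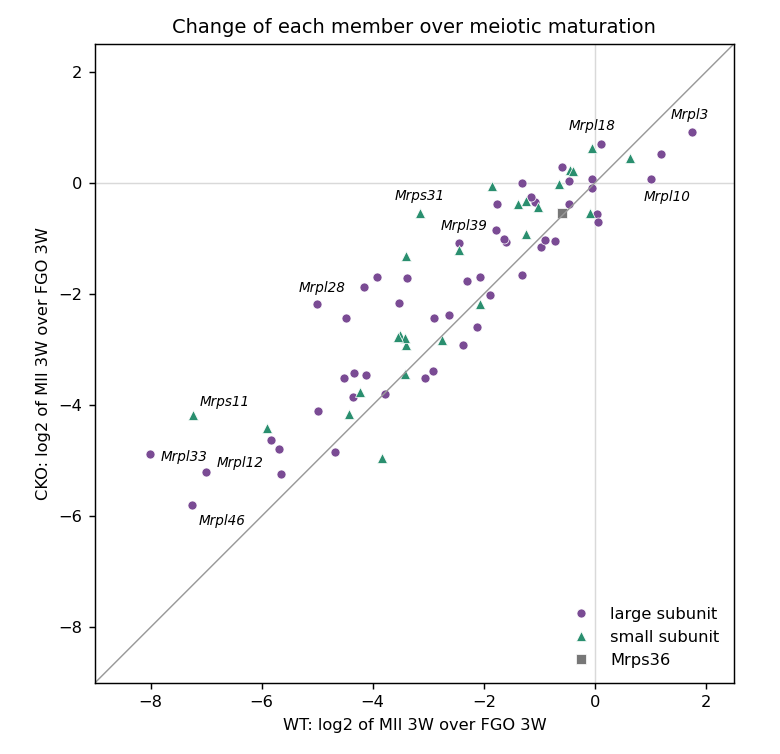
Log2 change from FGO 3W to MII 3W oocytes in WT (x axis) and in CKO (y axis), a point per member, shaped and coloured by subunit, with the line of equal change. Most points lie at negative values on both axes, and Mrps31, Mrpl28 and Mrps11 lie well above the line, while Mrpl10 lies below it.

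In zygotes the balance was the other way, with 15 members higher and 28 lower in CKO. Mrpl39 stayed higher, with 24.6, 32.8 and 26.0 CPM in CKO zygotes, against 6.91, 8.09 and 8.06 CPM in WT (1.85, SE 0.158, edgeR adjusted p 2.85e-09). Mrpl22 had 37.6, 40.7 and 35.2 CPM in CKO, against 12.8, 10.9 and 11.4 CPM in WT (1.70, SE 0.164, 2.05e-08). Both were over 2-fold higher in each CKO library than in any WT library. Mrps28 (1.61), Mrps26 (1.32) and Mrps16 (1.09), a small-subunit assembly protein in bacteria, were higher as well, and so were Mrpl49 (2.90), Mrpl28 (1.38), Mrpl14 (1.18), Mrpl2 (1.01), Mrpl9 (0.96), Mrps24 (0.74), Mrpl32 (0.49) and Mrpl10 (0.44), beside Mrpl20 and Mrps27. The CKO and WT ranges overlapped for 5 of the 15: Mrpl49 (3.93, 14.3 and 27.1 CPM in CKO, against 1.79, 3.94 and 0.293 CPM in WT), Mrps24, Mrpl32, Mrpl10 and Mrps27.

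Mrpl16, a protein of the large subunit near the transfer RNA sites, was lower, with 17.6, 10.1 and 12.04 CPM in CKO zygotes, against 35.4, 32.4 and 44.3 CPM in WT (-1.50, SE 0.207, edgeR adjusted p 4.02e-06). Mrps25, a small-subunit protein specific to mitochondria, had 90.8, 35.3 and 44.2 CPM in CKO, against 120.4, 124.6 and 125.3 CPM in WT (-1.12, SE 0.194, 7.53e-05), and its exons lie over Nr2c2 on 69.8% of their length. In most of the lower members, Mrps25 and Mrpl40 among them, CKO zygote replicate 1 lay between the other CKO libraries and WT. It is the library rich in ribosomal RNA symbols. Mrpl55, for example, had 11.65 CPM in that library and 3.656 and 4.327 CPM in the other CKO zygote libraries. Mrpl35 and Mrps18b were among the lower members without this order. Mrpl51 had 9.88, 3.00 and 7.05 CPM in CKO, against 17.4, 20.5 and 20.02 CPM in WT (-1.54, SE 0.267, 7.43e-05). Without CKO zygote replicate 1 the counts were 15 higher and 31 lower.

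The other lower members were Mrpl55 (-1.61), Mrpl17 (-1.45), Mrpl36 (-1.38), Mrps30 (-1.36), Mrpl58 (-1.33), Mrpl46 (-1.15), Mrps17 (-1.14), Mrpl33 (-1.09), Mrps7 (-0.92), Mrpl38 (-0.82), Mrpl50 (-0.82), Mrps36 (-0.80), Mrpl45 (-0.75), Mrps33 (-0.69), Mrpl34 (-0.69) and Mrpl48 (-0.65), with Mrps2, Mrpl23, Mrpl35, Mrpl40, Mrpl47, Mrps23 and the Mrps18 genes. Mrpl58 encodes a peptidyl-tRNA hydrolase that frees stalled ribosomes. Mrpl17, at the exit side of the large subunit, had 20.1, 7.12 and 10.6 CPM in CKO, against 23.9, 34.7 and 44.2 CPM in WT. The ranges did not overlap, except in Mrps36 and Mrps18a among the 28. Fitted on the 6 zygote libraries alone, with their own filter, scaling and spread, edgeR called 8 of 77 members higher and 7 lower in place of 15 and 28. Of all 15519 genes in that fit, 1112 were higher and 988 lower, in place of 3162 and 2719 of 21768.

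By origin, lower calls in zygotes were 14 of 31 among mitochondria-specific members and 12 of 45 among those shared with bacteria. Among the 31 mitochondria-specific members 4 were higher and 14 lower in CKO zygotes (median change -0.54), and among the 45 shared members 11 were higher and 12 lower (median 0.10). At metaphase II the same classes had 12 higher and 6 lower (median 0.54) and 17 higher and 5 lower (median 0.35). By subunit, at metaphase II 19 of 51 large-subunit members were higher and 8 lower, and 10 of 26 small-subunit members higher and 3 lower. In zygotes they had 10 higher and 19 lower, and 5 higher and 8 lower. The differences between these classes were not tested.

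Mrps18a, Mrps18b and Mrps18c are paralogs of bacterial S18 that sit at 3 different places in the ribosome, Mrps18a in the large subunit. All 3 were lower in CKO zygotes, by -0.91 (Mrps18a), -1.35 (Mrps18b) and -0.94 (Mrps18c), with edgeR adjusted p of 0.0122, 1.2e-05 and 0.0386. Mrps18b had 11.4, 10.3 and 13.7 CPM in CKO zygotes, against 27.3, 30.6 and 32.6 CPM in WT, with no overlap. None of the 3 was called at an earlier stage. The Mrps18a call ended without WT replicate 3 or CKO replicate 2 or 3 (adjusted p 0.0812 to 0.108), and that of Mrps18c without any library but CKO replicate 3 (0.0503 to 0.124).

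Set side by side, metaphase II oocytes and zygotes shared part of their calls. Higher in CKO at both were 10 members, 34.5% of the 29 at metaphase II and 66.7% of the 15 in zygotes, beside 39.5% and 49.6% for all genes. Lower at both were 8, 72.7% of the 11 and 28.6% of the 28, beside 35.2% and 41.5%. Mrpl33, Mrpl46, Mrpl48 and Mrps33 were higher in CKO at metaphase II and lower in zygotes, and Mrpl10 was lower and then higher. Of the others, 17 were called at metaphase II only, 20 in zygotes only and 18 at neither stage.

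**Figure D5:**
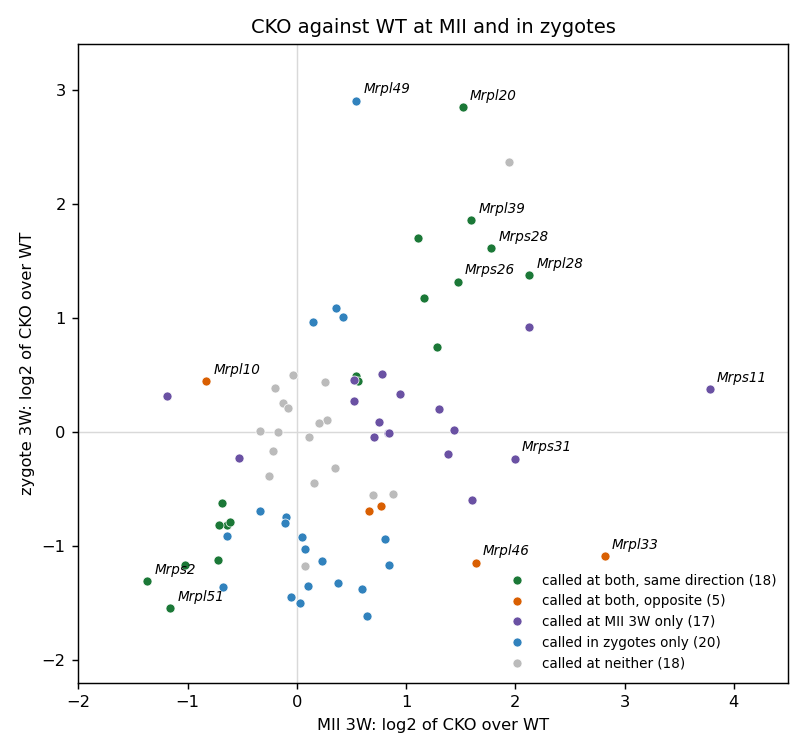
Log2 change of CKO over WT at MII 3W (x axis) and at zygote 3W (y axis), a point per member, coloured by where it was called. The 10 members higher at both stages and the 8 lower at both lie in the upper right and lower left, and 5 members called at both lie in the other corners.

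The change of the genotype effect from metaphase II to zygote was called for 27 members, 6 towards higher in CKO and 21 towards lower, against 7.49% and 8.2% of all genes. Mrps31 had a difference of -2.23 (SE 0.279, edgeR adjusted p 2.51e-06), since its level in zygotes was 16.5, 11.8 and 21.3 CPM in CKO, against 22.8, 16.9 and 18.6 CPM in WT, overlapping after the wide gap at metaphase II. Mrps11 (-3.40, SE 0.508) and Mrpl33 (-3.91, SE 0.615) had larger differences on far fewer reads. Mrpl3 (1.5, SE 0.271) and Mrpl10 (1.27, SE 0.208) moved the other way. Without the 2 libraries rich in ribosomal RNA symbols 41 members were called.

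Within CKO, 33 members were higher and 7 lower in zygotes than in MII oocytes (median 0.49, all genes 0.07; 13.6% of all genes higher, 8.62% lower), beside the 47 and 8 in WT. The largest were Mrps18a (2.57), Mrpl41 (2.33) and Mrpl48 (2.20), and the lower ones were led by Mrps36 (-2.04), Mrps31 (-1.28) and Mrpl22 (-0.71).

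G-quadruplex motifs were counted because DHX36 binds and unwinds such structures. The motif searched, on the sense strand of 1 GENCODE vM21 transcript per gene, was 4 runs of 3 G or more with loops of 1 to 7 bases. It was present in 10 of 78 members (12.8%, against 19.2% of all tested genes): in the 5′ UTR of Mrpl23, Mrpl40, Mrpl47, Mrps7 and Mrps12, and in the 3′ UTR of Mrpl19, Mrpl51, Mrps16, Mrps17 and Mrps35. The 5′ UTR matches and that of Mrpl51 are shown with the G runs in capitals, as DNA letters of the transcript.
Mrpl40: GGGGcGGGGctgcgtcGGGGGcGGGG
Mrpl47: GGGGaGGGctaaGGGagccGGG
Mrpl23: GGGtgcGGGGttGGGGGtGGGGtGGGG
Mrps7: GGGcGGGGGcGGGGcccgcatGGGGG
Mrps12: GGGcaaGGGcggttGGGtccttGGGGG
Mrpl51: GGGGagaacaGGGGagtGGGGatctGGG

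Of the 10 members with the motif 4 were lower in CKO at 3 stages or more (Mrpl23, Mrpl40, Mrpl47 and Mrpl51, the first 3 with it in the 5′ UTR), and of the 68 without it 4 were. None of the 10 and 5 of the 68 were higher at 3 stages or more. Among tested genes with a single match, lying in the 5′ UTR, 11.1% of 783 were lower at 3 stages or more and 9.71% higher. The shares were 8.67% and 8.95% of 1050 genes with a single match in the 3′ UTR, and 10.0% and 7.86% of 11917 genes without a match. Genes with several matches or with a match in the coding sequence are in none of these classes. By stage, a motif anywhere in the transcript was in 23.9% of all genes higher in CKO at metaphase II and 12.6% of those lower. The shares were 22.9% and 13.1% in zygotes and 22.3% and 15.5% at FGO 4W. At FGO 3W they were 16.7% and 19.0%, and at GO 2W 19.6% and 19.2%. Among members it was in 1 of the 29 higher and 3 of the 11 lower at metaphase II. In zygotes it was in 1 of the 15 higher and 6 of the 28 lower. At GO 2W it was in 0 of the 4 higher and 2 of the 6 lower members. At FGO 3W it was in 0 of 4 and 4 of 11, and at FGO 4W in 0 of 7 and 4 of 11. Mrps7 was lower in zygotes only (-0.92) and Mrps12 higher at metaphase II only (0.95). By RefSeq starts the match lies across the start in Mrpl23, 52 bases before it in Mrpl40 and 214 bases before it in Mrps7, so whether these transcripts carry it depends on the annotation.

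Other genes of the mitochondrial ribosome were taken from lists of its remaining proteins, assembly factors, translation factors and regulators. Of 5 ribosomal proteins with other names, Dap3, a GTP-binding small-subunit protein, was lower in CKO at all 5 stages (-0.56, -1.02, -0.67, -1.01 and -0.76). It averaged 68.3 ± 7.21 CPM in CKO MII oocytes (SD, n = 4) and 137.3 ± 3.25 CPM in WT MII oocytes (SD, n = 3; edgeR adjusted p 1.25e-07). Chchd1 was higher at metaphase II (2.02) and in zygotes (1.40), and Ptcd3 was lower at metaphase II (-1.21). In order from GO 2W to zygote the 5 had 0, 0, 0, 2 and 1 higher and 1, 1, 2, 2 and 1 lower. Of all genes 7.34%, 8.19%, 11.8%, 18.2% and 14.5% were called higher in the same order. Lower calls were 6.38%, 9.62%, 14.8%, 14.7% and 12.5% of all genes, and the counts of the lists below stand beside the same shares.

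Among 24 assembly factors tested, 5, 4, 5, 6 and 7 were higher and 1, 3, 3, 11 and 4 lower from GO 2W to zygote. At metaphase II this is 6 higher and 11 lower of 24, beside 18.2% and 14.7% of all genes. Fastkd2, an RNA-binding factor of large-subunit assembly, averaged 9.45 ± 3.44 CPM in CKO MII oocytes and 31.9 ± 0.864 CPM in WT MII oocytes (-1.75, edgeR adjusted p 1.02e-06). Eral1, a chaperone of the small subunit's RNA, was higher at FGO 4W (1.57), and Nsun4, a ribosomal RNA methyltransferase, was lower at metaphase II (-0.97). Of 15 translation factors 0, 0, 1, 1 and 2 were higher and 0, 0, 3, 7 and 5 lower; at metaphase II this is 1 higher and 7 lower of 15, where 18.2% and 14.7% of all genes were called. Mtfmt, which formylates the initiator methionine, averaged 6.91 ± 1.83 CPM in CKO MII oocytes and 24.9 ± 3.04 CPM in WT MII oocytes (-1.84, 3.11e-08), and Gfm1 (-1.24), an elongation factor, and Oxa1l (-1.19), which inserts new proteins in the membrane, were lower too.

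Of 20 genes of mitochondrial transcription and RNA maintenance 6, 6, 4, 7 and 4 were higher and 1, 0, 2, 5 and 6 lower. Hsd17b10, a subunit of mitochondrial RNase P, was higher at all 5 stages (1.78, 2.94, 2.92, 4.38 and 2.54), with 8.73 ± 1.94 CPM in CKO MII oocytes and 0.421 ± 0.171 CPM in WT MII oocytes. Trmt10c, another subunit of that enzyme, was higher at GO 2W (2.15), and Slirp at metaphase II (2.74). Of 10 regulators 3, 3, 4, 4 and 3 were higher and 1, 1, 1, 0 and 0 lower. Yy1, whose motif is among those counted in the promoters, was higher at all 5 stages (1.63, 1.99, 2.17, 2.64 and 1.09), and Sp1 at metaphase II (1.65). Gabpa had 0.422 to 1.33 CPM in CKO zygotes and 0 counts in all 3 WT zygote libraries, a call that ended in limma on log2(FPKM + 1) (0.18, adjusted p 0.335).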

How the data were processed

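Poly(A) RNA of 29 tubes was analysed as raw counts per gene symbol, deposited by the authors without normalization, and as FPKM that the authors computed from the same counts (a constant multiple of count over length and library total on 8111 genes, relative tolerance 1e-09). Tools listed in the submitters' processing notes are featureCounts, HISAT2, SAMtools, FastQC and Trim Galore, with genome mm10, and the strand setting is not given in the sources used here. Even values made up 81% of the counts between 1 and 20, which would follow if each end of a pair was counted. The model was fitted to the counts with edgeR 4.0.16 (R 4.3.3, TMM, filterByExpr with minimum count 10, 1 model of 10 groups, trended dispersion 0.0337 to 1.17, 19 residual and 8.308 prior df), with Benjamini-Hochberg adjustment over 21768 genes at 0.05 and a check on simulated data. limma 3.58.1 (pseudocounts 1 and 0.1) and DESeq2 1.42.0 were alternatives, beside RLE scaling, no filter, common dispersion, a replicate block, fits of a stage alone and leaving libraries out. Sequences came from RefSeq (GRCm38.p6) and GENCODE vM21, read with Python 3.11.15 (NumPy 2.4.6, pandas 2.3.3). Genes were named by rule (up to 6 called per direction and stage with the smallest adjusted p, largest changes between WT stages, calls at 3 or more stages, extremes of FPKM, S18 paralogs), and other members were added to account for all. Members and lists were chosen with earlier results of these data known. Reads carry no molecular identifiers.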

Additional observations from a re-analysis of the deposited data

Results flagged for a closer look

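Below are 7 results marked because the CKO to WT change differed between stages by edgeR's test of the difference itself. Mrps2 fell more at FGO 3W than at GO 2W (difference -1.05). From FGO 3W to MII 3W the change moved towards higher in CKO for Mrps31 (2.62), Mrpl28 (2.82) and Mrpl39 (1.37). From MII 3W to zygote 3W it moved towards lower in CKO for Mrps31 (-2.23), Mrps11 (-3.40) and Mrpl33 (-3.91). The Mrps11 and Mrpl33 values rest on very low WT levels at metaphase II. A library set far from the rest of its group could be looked for only at CKO MII 3W, the group of 4: it was found for 0 of 23 members, where chance alone marks about 1 in 20.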

How the results depend on the processing

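No call of a named member was replaced by a call in the opposite direction under any setting run. Changes that were not called are not covered by this, and the sign of the prophase medians depended on the scaling, as given above. GO 2W counts, 4 higher and 6 lower, were 10 and 17 when the stage was fitted alone, 9 and 3 in limma on log2(FPKM + 1), 2 lower on log2(FPKM + 0.1), 2 lower with no filter, and 1 to 2 and 1 to 4 with a library left out. Over all genes the GO 2W counts were 3520 higher and 2827 lower of 17227 fitted alone. They were 2162 and 909 of 15242 on log2(FPKM + 0.1), and 1812 and 1272 of 36715 with no filter. FGO 3W counts, 4 and 11, were 8 and 18 fitted alone, 8 and 2 in limma on log2(FPKM + 1), 7 and 2 on log2(FPKM + 0.1), 6 lower with RLE size factors, 3 lower with no filter, 7 higher without the libraries rich in ribosomal RNA symbols, and 1 to 3 and 1 to 5 with a library left out. All genes had 3860 higher and 3055 lower of 19876 at FGO 3W fitted alone, and 2546 and 1205 of 15242 on log2(FPKM + 0.1). Lower were 1805 of 21768 genes with RLE size factors and 1741 of 36715 with no filter. Higher were 2525 of 21606 without the libraries rich in ribosomal RNA symbols. FGO 4W counts, 7 and 11, were 15 and 19 fitted alone, 17 higher in limma with 1 and 13 higher and 7 lower with 0.1 as pseudocount, and 5 to 7 and 7 to 10 with a library left out. Of all genes at FGO 4W, 3461 were higher and 3565 lower of 17120 fitted alone, and 3168 and 2224 of 15242 with pseudocount 0.1. Zygote counts, 15 and 28, were 8 and 7 fitted alone and 11 to 16 and 22 to 31 with a library left out, and the MII counts, 29 and 11, were 28 to 32 and 9 to 12 with a library left out (33 and 8 in limma on log2(FPKM + 1), 31 and 14 without the libraries rich in ribosomal RNA symbols). Zygotes fitted alone had 1112 higher and 988 lower of all 15519 genes. At metaphase II, 3953 were higher and 3076 lower of 21606 genes without the libraries rich in ribosomal RNA symbols. The 4 members higher in WT MII oocytes were 2 in limma with either pseudocount (3 to 4 with a library left out, and 60 to 63 lower), and the 8 lower in WT zygotes were 5 with no filter, 4 and 4 in limma, and 7 to 8 with a library left out (43 to 47 higher). Of all 15242 genes in limma, 2316 and 2289 were higher in WT MII oocytes with pseudocounts 1 and 0.1. Lower in WT zygotes were 1491 and 1510 of them, and 2877 of 36715 genes with no filter. All-gene counts with a library left out are not given here.

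Calls of a difference between stages were, for FGO 3W minus GO 2W (1 in the fit reported), 0 with RLE size factors, 0 with no filter, 2 in limma with pseudocount 1, 3 in DESeq2 and 0 to 1 with a library left out. For FGO 4W minus FGO 3W (0) they were 1 in limma with pseudocount 1, 1 in DESeq2 and 0 to 1 with a library left out. For MII 3W minus FGO 3W (24) the range was 15 to 28, and for zygote minus MII (27) it was 24 to 39, and 41 without the libraries rich in ribosomal RNA symbols. Without those libraries the zygote minus MII difference was called higher for 1946 and lower for 2814 of all 21606 genes. Same-numbered CKO and WT libraries did not deviate together (correlations -0.0797 to 0.0392). With groups of 2 to 4 tubes, these correlations cannot exclude that the numbers pair libraries. With the replicate number as a block, GO 2W gave 1 higher and 1 lower, FGO 3W 4 lower, FGO 4W 7 lower, and FGO 3W minus GO 2W gave 0. Over all 21768 genes the block gave 1264 higher and 1071 lower at GO 2W, 1710 lower at FGO 3W and 2761 lower at FGO 4W. The causes of these differences between settings were not tested. Groups of 2 to 4 tubes limit small changes, and members near 0 at metaphase II give ratios on very few reads.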
